A study of Drosophila melanogaster with 47 samples.

Results

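The genes described here are 9 regulators of insulin, FOXO and TOR signalling in the midgut of adult female Drosophila melanogaster: Ilp3, ImpL2, InR, chico, foxo, Thor, REPTOR, REPTOR-BP and Sesn. They were picked by name with earlier results of these data known, so counts of them beside all genes are descriptive. Their rows were read from the count tables of the whole gut, progenitor and Actin libraries, which together hold 11964 genes. All 9 had a row in the whole gut and Actin tables and 8 had a row in the progenitor table, where Ilp3 was not analysed. After the filter on low counts, 8 were tested in whole guts, 7 in progenitors and 9 in the Actin libraries, because Sesn was below the filter in the first 2.

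Insulin-like peptides bind the insulin receptor InR on the cell surface, and the adaptor Chico passes the signal to PI3 kinase and Akt. Akt keeps the transcription factor FOXO out of the nucleus and, through Rheb, favours the growth kinase TOR, so that well-fed cells make protein and starved cells switch on FOXO and REPTOR target genes. In the fly midgut, Ilp3 made by the surrounding visceral muscle is known to feed this pathway in the intestinal stem cells when the gut grows.

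The study compared females kept with males for 48 h with unmated females of matched age and genotype, and asked whether the ecdysone receptor gene EcR takes part in the response. The analysed groups were mated and unmated esg-Gal4 whole guts, mated and unmated esg+ progenitor cells sorted by FACS from esg-Gal4 guts, mated and unmated Actin-Gal4 control guts, and mated and unmated Actin-Gal4 guts with EcR RNAi. The esg driver is active in stem cells and their undifferentiated daughters, and the Actin driver is ubiquitous, so RNAi under it was not limited to the gut. Actin-Gal4 females of both genotypes were held 5 days at 29 °C before mating at 25 °C. Each of the 8 groups had 4 libraries of poly(A) RNA, with 15 guts pooled for a gut library and 100 to 150 guts for a sorted one, so the p-values measure the spread between pools. Of 47 samples, 15 with the Myo1A driver were not analysed here.

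Gene counts per library ran from 13712654 to 24527185 in whole guts, from 31333743 to 44215773 in progenitors and from 19371149 to 29800901 in the Actin libraries. Levels are in CPM, counts divided by library sizes that were adjusted with the trimmed mean of M values (TMM) within each table, so levels set side by side across the 3 tables carry no test. A change is a log2 fold change with its standard error (SE). The adjusted p is that of edgeR's quasi-likelihood test with Benjamini-Hochberg adjustment over all genes tested, and a gene was called when it was under 0.05. EcR itself was not lower in the libraries labelled EcR RNAi: the log2 difference from control was 0.67 (SE 0.11, adjusted p = 0.00125) in unmated and 0.21 (SE 0.11, adjusted p = 0.34) in mated guts, so the label is used as given. The 7 progenitor markers summed to 2349 to 3605 CPM in sorted libraries against 55.9 to 201 CPM in guts, while the 12 enterocyte markers summed to 1475 to 3057 CPM in sorted libraries and at least 34500 CPM in guts. Unmated progenitor libraries stood apart by 12 heat shock genes, which summed to 78110, 43320, 20410 and 58260 CPM in libraries 1 to 4 against 5495 to 9192 CPM in the mated ones.

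Per kilobase of exon, Thor was by far the most abundant of the 9 transcripts, with group means from 392 to 1017 CPM per kb. REPTOR-BP followed at 28.4 to 79.9 CPM per kb and foxo at 19.4 to 48.1 CPM per kb. The receptor side was lower, with chico at 9.10 to 21.9 CPM per kb and InR at 2.75 to 19.4 CPM per kb. REPTOR ranged from 8.30 to 27.0 CPM per kb and ImpL2 from 3.40 to 14.9 CPM per kb. Ilp3 was scarce at 0.483 to 4.60 CPM per kb, and Sesn was close to absent at 0.0326 to 0.0847 CPM per kb.

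**Figure D1:**
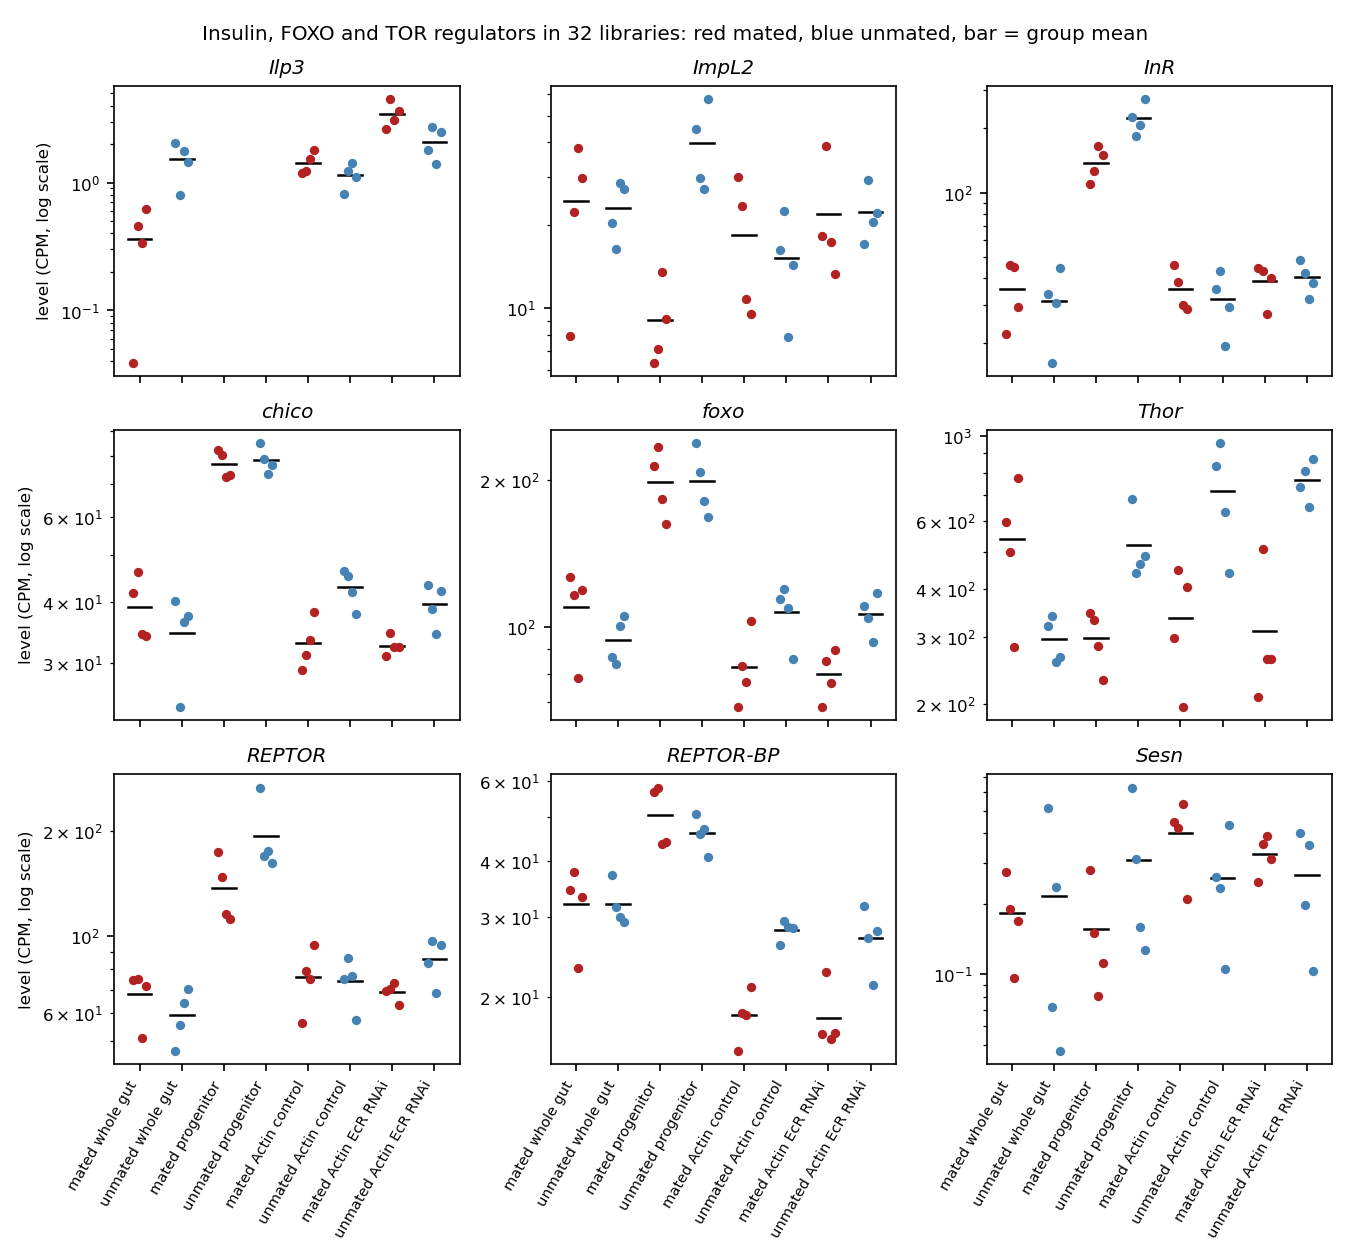
Level of each of the 9 regulators (CPM, log scale) in each of 32 libraries, with mated libraries in red, unmated in blue and the group mean as a bar; Ilp3 has no points for progenitors, whose table held no Ilp3 row. Thor is high in unmated and lower in mated progenitor and Actin libraries, ImpL2 and InR separate mated from unmated progenitors, and Sesn lies under 1 CPM in every library.

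Every regulator called for mating was lower in the mated libraries, and Thor was called in 3 of the 4 materials. In progenitors 3 of 7 tested regulators fell (ImpL2, Thor and InR) and none rose, where 40.2% of all tested genes were called and 21.1% were called lower, so the share of 3 in 7 lies close to that of all genes. That background rests on few libraries: 3627 genes were called, against 2248 without unmated library 4 and 1302 without unmated libraries 1 and 4, where 2 of 7 regulators were called. In Actin controls 3 of 9 fell (REPTOR-BP, chico and Thor), against 6.87% of all genes called and 3.92% called lower. In the EcR RNAi libraries 2 of 9 fell (Thor and REPTOR-BP), against 10.8% called and 5.41% called lower. The 9 were chosen with earlier results of these data known, so these shares carry no test. In whole guts none of 8 was called, where 4.26% of all genes were; 2 of the 8, Ilp3 and Thor, had an unadjusted p under 0.05, as 16.5% of all genes did, and DESeq2 called both. The median log2 fold change of the tested regulators was 0.18 in whole guts, -0.49 in progenitors, 0.04 in Actin controls and -0.29 in EcR RNAi guts, while the median of all genes lay between -0.003 and 0.021 in the same comparisons.

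**Figure D2:**
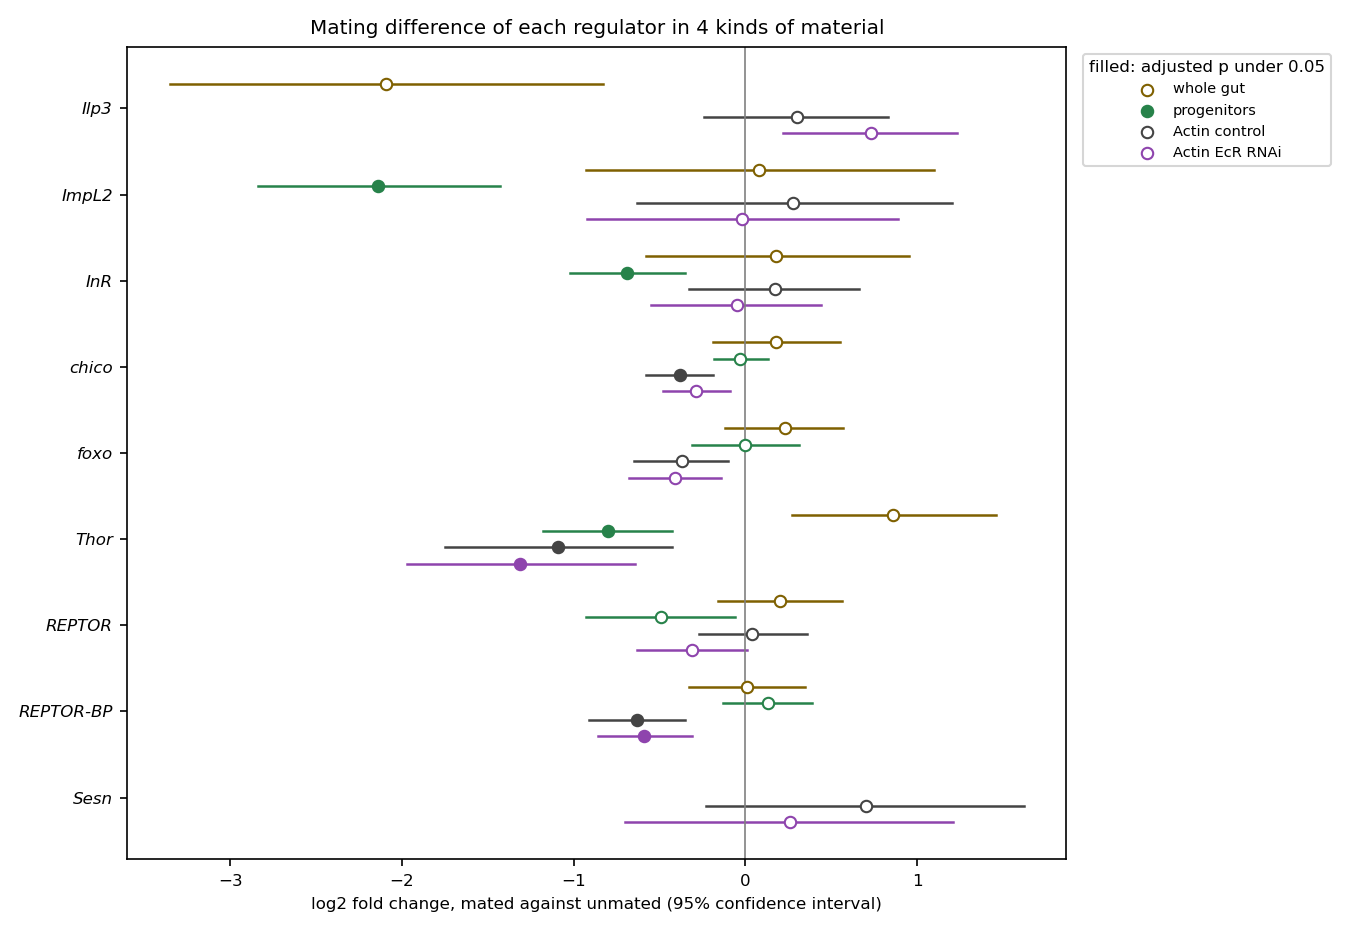
Log2 fold change of each regulator between mated and unmated libraries in 4 kinds of material (n = 4 against 4), with its 95% confidence interval as a line and filled points for an adjusted p under 0.05. Thor lies left of 0 in progenitors, Actin controls and EcR RNAi guts and right of 0 in whole guts, and the ImpL2 decrease of -2.14 is seen in progenitors.

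Ilp3 encodes the insulin-like peptide of gut muscle and brain neurosecretory cells. It lies on chromosome 3L from 9801298 to 9802120 on the minus strand (BDGP6.54 annotation, FBgn0044050) and has 2 exons. In mated whole guts it gave 1, 12, 7 and 11 counts in libraries 1 to 4, and in unmated whole guts 28, 11, 30 and 31 counts. After scaling, the level averaged 0.363 ± 0.244 CPM with mating against 1.52 ± 0.539 CPM without (SD, n = 4), and the highest mated library lay below the lowest unmated one, which was so for 11.5% of all genes in either direction. The log2 fold change of -2.09 (SE 0.56, 95% confidence interval -3.35 to -0.83) did not pass the test (adjusted p = 0.0758), whereas DESeq2 gave an adjusted p of 0.0113. DESeq2 was the only 1 of 13 alternatives to call it. No such lower level was measured in Actin controls, at 1.43 ± 0.280 CPM when mated and 1.15 ± 0.260 CPM when unmated (log2 fold change 0.30, SE 0.25, adjusted p = 0.501).

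Ilp3 was also the only regulator called between genotypes. In mated guts the EcR RNAi libraries held 2.60, 4.49, 3.07 and 3.65 CPM and the controls 1.18, 1.23, 1.52 and 1.78 CPM, with no overlap, as for 13.1% of all genes. This rise of 1.28 (SE 0.24, adjusted p = 0.00414) was 1 call among 9 regulators, where 8.52% of all genes were called and 3.53% were called higher. In unmated guts the EcR RNAi libraries held 1.79, 2.71, 1.39 and 2.48 CPM and the controls 0.817, 1.24, 1.44 and 1.11 CPM, which overlap in 1 library of EcR RNAi. There the rise was 0.85 (SE 0.25, adjusted p = 0.0311), again the 1 call among 9, where 15.2% of all genes were called and 7.95% were called higher. The unmated call was lost without control library 1 or 4 or EcR RNAi library 2 or 4 (adjusted p from 0.0707 to 0.098) and with the compared groups fitted alone (adjusted p = 0.0616), while the mated call was kept in all 23 alternatives. Within EcR RNAi guts, mated against unmated gave 0.73 (SE 0.24, adjusted p = 0.0604, and 0.0315 by DESeq2). By level the order of means was mated EcR RNAi, unmated EcR RNAi, unmated whole gut, mated Actin control, unmated Actin control and mated whole gut, and of these neighbours only the last pair did not overlap.

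Because Ilp3 is a product of visceral muscle, 12 muscle markers, also chosen with earlier results known, were read beside it. In whole guts their sum was 1545 to 1934 CPM when mated and 2722 to 2929 CPM when unmated, and 8 of 12 fell, at a background of 4.26% called. In unmated Actin guts 7 of 12 were lower with EcR RNAi, at a background of 15.2%, with sums of 1967 to 2621 CPM against 2731 to 3719 CPM in controls, where Ilp3 was higher. In mated Actin guts none of 12 was called between genotypes, at a background of 8.52%, with 3 at an unadjusted p under 0.05 and sums of 2522 to 3479 CPM with EcR RNAi and 2802 to 4281 CPM in controls. All 12 markers were detected in every group. Fat body markers also stood apart between mated genotypes, at sums of 86.5 to 183 CPM with EcR RNAi and 189 to 663 CPM in controls. Of the 4 tested 1 was lower, at a background of 8.52% called, and all 4 had an unadjusted p under 0.05. The share of all genes at that unadjusted threshold is not given for mated genotypes, so the counts of 3 muscle and 4 fat body markers have no background. The part of muscle and fat body content in the Ilp3 values was not tested, and in pooled guts fewer cells of a type and less RNA per cell cannot be told apart.

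**Figure D3:**
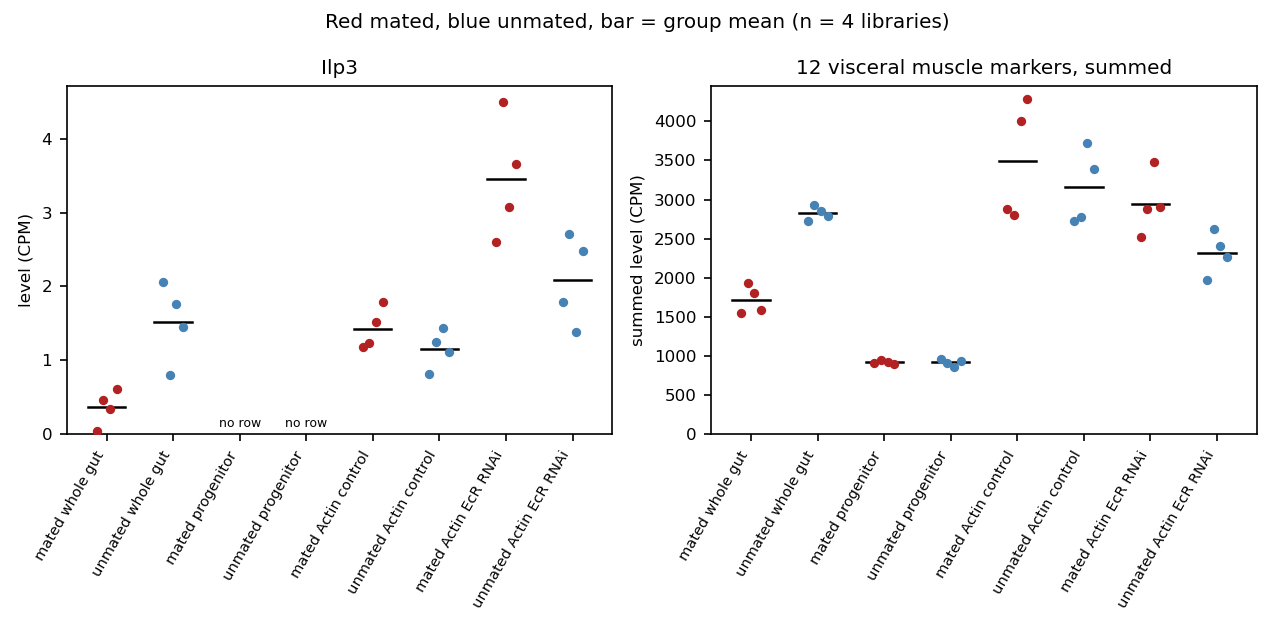
Left, Ilp3 level (CPM) in each library; right, summed level of 12 visceral muscle markers (CPM) in the same libraries, with mated libraries in red, unmated in blue and bars for group means (n = 4). Ilp3 and the muscle sum are both low in mated whole guts, while in unmated EcR RNAi guts Ilp3 is above and the muscle sum below the unmated control.

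ImpL2 encodes a secreted protein that binds insulin-like peptides and holds them from the receptor. It lies on chromosome 3L from 4224006 to 4236147 on the minus strand (FBgn0001257), and 61.9% of its 2667 exon bases are shared with CG46460 on the same strand, which had no row in the tables used, so ImpL2 values are uncertain to that extent. In sorted progenitors it was at 6.35, 7.12, 13.6 and 9.19 CPM in the 4 mated libraries and at 44.9, 29.6, 27.2 and 57.4 CPM in the 4 unmated ones. Every mated library lay below every unmated one, a separation that 41.3% of all genes showed in one direction or the other, and ImpL2 fell by 2.14 on the log2 scale (SE 0.31, adjusted p = 0.00343). It fell in all 15 alternatives, with log2 fold changes from -2.39 to -1.66.

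The guts did not show this drop. In whole guts ImpL2 averaged 24.6 ± 12.8 CPM with mating and 23.1 ± 5.70 CPM without, a difference of 0.08 on the log2 scale (SE 0.44, adjusted p = 0.954). Its mated whole gut libraries spread from 7.93 to 38.2 CPM, so a change of the size seen in progenitors lies outside the 95% confidence interval of -0.93 to 1.10, but a smaller one does not. In Actin controls the mated libraries held 29.9, 23.5, 10.9 and 9.54 CPM and the unmated ones 16.3, 22.5, 7.88 and 14.3 CPM, and the groups overlap widely (log2 fold change 0.28, SE 0.42, adjusted p = 0.728). EcR RNAi guts gave -0.02 (SE 0.42, adjusted p = 0.987).

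InR encodes the fly's insulin receptor (chromosome 3R from 21570248 to 21619321, minus strand, FBgn0283499). Mated progenitor libraries held 110, 126, 165 and 149 CPM and unmated ones 224, 182, 206 and 272 CPM. The groups did not overlap, as 41.3% of all genes did not, and InR fell by 0.69 on the log2 scale (SE 0.15, adjusted p = 0.00968). Without unmated libraries 1 and 4, where the heat shock genes were highest, the InR change was -0.51 (adjusted p = 0.0739) and no longer called, while ImpL2 stayed called at -1.66 (adjusted p = 0.0164). That smaller fit also called fewer of all genes, 1302 against 3627. In the guts InR averaged 31.3 to 40.4 CPM in every group, and mating differences of 0.18, 0.17 and -0.05 in whole guts, Actin controls and EcR RNAi guts were not called (adjusted p from 0.707 to 0.915).

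The chico gene encodes the receptor's adaptor, related to the vertebrate insulin receptor substrates (chromosome 2L from 10242512 to 10247078, minus strand, FBgn0024248). An antisense RNA, asRNA:CR44995, covers 10.6% of its exon bases on the other strand, and without a stated strand setting their reads cannot be told apart. Actin control libraries held 29.0, 31.2, 33.4 and 38.2 CPM when mated and 46.4, 45.3, 42.1 and 37.8 CPM when unmated, with the highest mated library just above the lowest unmated one. This was a decrease of 0.38 (SE 0.09, adjusted p = 0.023), and leaving out mated or unmated control library 1 or 2 ended the call, with an adjusted p from 0.0519 to 0.0683, as did fitting the compared groups alone (adjusted p = 0.0696). The EcR RNAi guts gave -0.29 (SE 0.09, adjusted p = 0.06, and 0.046 by DESeq2). In progenitors chico was at 77.1 ± 4.97 CPM when mated and 78.4 ± 4.89 CPM when unmated, with a 95% confidence interval of -0.18 to 0.13 for the log2 fold change.

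The transcription factor gene foxo, whose protein switches on Thor and InR when insulin signalling is low, lies on chromosome 3R from 14056945 to 14087978 (plus strand, FBgn0038197). The gene did not pass the test for mating in any material, though some alternatives called it in Actin controls and with EcR RNAi. Its Actin control libraries held 68.5, 83.0, 76.8 and 103 CPM when mated and 114, 120, 109 and 85.8 CPM when unmated. Mated library 4 lies inside the unmated range and the other 3 mated libraries lie below it (log2 fold change -0.37, SE 0.13, adjusted p = 0.0897). In controls foxo was called in 2 of 23 alternatives, without mated control library 4 (adjusted p = 0.0293) and without unmated control library 4 (adjusted p = 0.0382). With EcR RNAi the 4 mated libraries, at 68.4 to 89.4 CPM, all lay below the 4 unmated ones, at 93.2 to 117 CPM, where 19.3% of all genes do not overlap (log2 fold change -0.41, SE 0.13, adjusted p = 0.0532). There foxo was called in 8 of 23 alternatives, among them DESeq2 (adjusted p = 0.0304) and the fit of the 2 compared groups alone (adjusted p = 0.0289). In progenitors the means were 198 ± 31.7 CPM when mated and 199 ± 30.9 CPM when unmated, and the 95% confidence interval of the log2 fold change was -0.31 to 0.31.

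Thor encodes 4E-BP, which holds the cap-binding protein eIF4E from starting translation until TOR phosphorylates it, and is a textbook FOXO target. It lies on chromosome 2L from 3478434 to 3479612 (plus strand, FBgn0261560) and has 755 exon bases. In progenitors Thor fell from 687, 441, 464 and 487 CPM in the unmated libraries to 345, 332, 285 and 231 CPM in the mated ones, with no overlap, as for 41.3% of all genes. The log2 fold change was -0.80 (SE 0.17, adjusted p = 0.00827), and -0.61 (adjusted p = 0.0422) without unmated libraries 1 and 4. EcR RNAi guts likewise did not overlap, as 19.3% of all genes did not, at 209, 508, 262 and 262 CPM when mated and 737, 809, 654 and 873 CPM when unmated. Thor fell there by 1.31 (SE 0.31, adjusted p = 0.0172), although without mated library 1, 3 or 4 the adjusted p was 0.0526, 0.0583 or 0.0502.

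Actin controls showed the same direction with a less certain call. The mated control libraries held 298, 447, 197 and 404 CPM and the unmated ones 837, 956, 635 and 440 CPM, so unmated library 4 fell just inside the mated range. The log2 fold change was -1.09 (SE 0.31, adjusted p = 0.048), and Thor remained called in 8 of 23 alternatives, with an adjusted p between 0.00397 and 0.123. Among others it was lost without mated control library 1, 2, 3 or 4, without unmated control library 1, 2 or 3 and with the compared groups fitted alone (adjusted p = 0.096). The control and EcR RNAi decreases differed by -0.22 (95% confidence interval -1.14 to 0.71, adjusted p = 0.924), so the interval holds 0 and a decrease larger by about 1 log2 unit with EcR RNAi.

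In whole guts Thor pointed the other way. Mated libraries held 596, 499, 283 and 779 CPM and unmated ones 321, 340.4, 258 and 266 CPM. Of the mated libraries 3 lie above all unmated ones and library 3 lies among them. Library 3 also stood apart in other genes: the 12 heat shock genes summed to 805.7 CPM in it against 156.6 to 219.2 CPM in the other mated libraries, and the 5 fat body markers to 165.5 against 644.9 to 1384 CPM. The log2 fold change of 0.86 (SE 0.27, 95% confidence interval 0.27 to 1.46) did not pass the test (adjusted p = 0.128). DESeq2 called it (adjusted p = 0.0221), as did edgeR without mated library 3, the lowest mated one (log2 fold change 1.08, adjusted p = 0.0082). These were the only 2 of 14 alternatives that called it, with an adjusted p up to 0.329 among the 14. Library 3 was also the lowest mated whole gut library for foxo, REPTOR and REPTOR-BP. Enterocyte markers summed to 34500 to 36610 CPM in mated and 41400 to 59150 CPM in unmated whole guts, without overlap, as for 11.5% of single genes. Of these 12 markers 2 were called higher and 2 lower, at a background of 4.26% called, and their median log2 fold change was -0.15. The part of these cells and of library 3 in the whole gut values was not tested further.

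REPTOR and REPTOR-BP encode partner transcription factors of the bZIP kind that drive much of the response to TOR inhibition. Of the 2 proteins, REPTOR is the one that TOR holds inactive. REPTOR-BP lies on chromosome 2L from 10264125 to 10265229 (plus strand, FBgn0032202). It was at 15.2, 18.4, 18.2 and 21.0 CPM in mated and 26.0, 29.4, 28.6 and 28.4 CPM in unmated Actin controls, with no overlap, where 14.1% of all genes do not overlap. It fell by 0.63 (SE 0.13, adjusted p = 0.012). In EcR RNAi guts the mated libraries held 16.5, 22.7, 16.2 and 16.7 CPM and the unmated ones 31.8, 26.9, 21.2 and 28.04 CPM, and only mated library 2 reached into the unmated range. There REPTOR-BP fell by 0.59 (SE 0.13, adjusted p = 0.0121), and both decreases were called in all 23 alternatives each. Other markers stood apart in the same Actin libraries, beside REPTOR-BP, chico and Thor. Enteroendocrine markers summed to 547 to 690 CPM in mated and 727 to 761 CPM in unmated controls. Of 12 such markers 1 was lower, where 3.92% of all genes were called lower. Heat shock genes summed to 696 to 1095 CPM in mated and 385 to 529 CPM in unmated EcR RNAi guts. Of 12 such genes 1 was higher, where 10.8% of all genes were called. The part of both lists in the decreases was not tested. In esg-Gal4 material REPTOR-BP differed little with mating, at 32.2 ± 6.33 against 32.04 ± 3.58 CPM in whole guts and 50.7 ± 7.92 against 46.2 ± 4.12 CPM in progenitors (adjusted p = 0.984 and 0.366).

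REPTOR itself (chromosome 3R from 24557368 to 24582864, minus strand, FBgn0039209) was not called for mating in any material. Mated progenitor libraries held 174, 147, 115 and 112 CPM and unmated ones 266, 170, 175 and 161 CPM. Unmated library 1 stood far above the rest, mated library 1 was within the unmated range, and REPTOR differed by -0.49 on the log2 scale (SE 0.19, adjusted p = 0.0676, and 0.0272 by DESeq2). In Actin controls the means were 76.2 ± 15.6 CPM when mated and 73.9 ± 12.2 CPM when unmated (log2 fold change 0.04, SE 0.15, adjusted p = 0.896). A difference in response between REPTOR and its partner was not itself tested.

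Sesn encodes Sestrin, a stress-induced inhibitor of TOR complex 1. It lies on chromosome 2R from 23713900 to 23734846 (plus strand, FBgn0034897) and shares 65.1% of its 4760 exon bases with CG46429 on the same strand, which had no row in the tables used. It had 1 to 7 counts in whole gut libraries, 3 to 19 in progenitor libraries and 2 to 14 in Actin libraries. The Actin comparisons gave a mating difference of 0.70 (95% confidence interval -0.23 to 1.62) in controls and 0.26 (-0.70 to 1.21) with EcR RNAi. Both intervals hold 0 and a difference of more than 1 log2 unit, so no difference was detectable at this depth.

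In progenitors, markers of several cell types and stress genes moved with mating beside ImpL2, InR and Thor. The background there was 40.2% of genes called and 21.1% called lower. All 12 tested heat shock genes were lower in mated libraries, with sums of 5495 to 9192 CPM against 20410 to 78110 CPM. Enteroendocrine markers summed to 181 to 554 CPM in mated and 435 to 773 CPM in unmated libraries, and 6 of 12 fell. Enterocyte markers summed to 1475 to 2041 CPM in mated and 1924 to 3057 CPM in unmated libraries, and 4 of 11 fell. Trachea markers summed to 34.2 to 40.05 CPM in mated and 43.1 to 76.8 CPM in unmated libraries, without overlap, and both tested ones fell. In guts this sum was only 10.04 to 18.05 CPM. Of 4 trachea markers 1 was higher and 3 were lower in progenitors than in whole guts, so the sum is no measure of trachea in sorted libraries. Of 3 tested haemocyte markers 2 fell, with sums of 9.46 to 11.4 CPM in mated and 11.1 to 15.3 CPM in unmated libraries. Visceral muscle markers summed to 898.4 to 952.3 CPM in mated and 860.5 to 957.8 CPM in unmated libraries, and 2 of 12 fell. Of 7 progenitor markers 3 rose and 1 fell, with sums of 2729 to 3605 CPM in mated and 2349 to 2801 CPM in unmated libraries. The part of these in the 3 decreases was not tested. Without unmated libraries 1 and 4, ImpL2 and Thor kept their calls and InR did not. The unmated libraries kept in that fit, 2 and 3, still summed to 43320 and 20410 CPM of heat shock genes. Fewer of all genes were called in it, 1302 against 3627, so kept or lost calls cannot decide that part.

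Sorted progenitors were set against whole guts in a joint fit of both tables, in which sort, library run and cell type cannot be told apart. On that joint scale InR was at 182 ± 28.9 CPM in unmated progenitors and 38.1 ± 14.1 CPM in unmated whole guts, a log2 difference of 2.25 (SE 0.28, adjusted p = 2.04e-06), and at 114 ± 19.9 against 42.9 ± 14.4 CPM in mated ones, a difference of 1.41 (SE 0.27, adjusted p = 1.74e-04). InR was thus higher in the sorted libraries than in the whole gut libraries, where 42.2% of all genes were called higher when unmated and 43.2% when mated. Every progenitor library lay above every gut library, at 149.8 CPM or more against 53.6 CPM or less when unmated and at 92.2 or more against 55.4 or less when mated, a separation that 75% of all genes showed when unmated and 79.3% when mated. In unmated material chico, foxo and REPTOR were higher too, with log2 differences of 0.61 (SE 0.14, adjusted p = 6.43e-04), 0.52 (SE 0.16, adjusted p = 0.00633) and 1.14 (SE 0.20, adjusted p = 5.46e-05). That makes 4 of 7 regulators higher and none lower, where 81% of all genes were called and 42.2% were called higher. REPTOR-BP differed by -0.04 (SE 0.15, adjusted p = 0.827).

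In mated material 3 of 7 were higher in progenitors (InR, chico and REPTOR) and 2 were lower (ImpL2 and Thor), where 82.9% of all genes were called, 43.2% higher and 39.7% lower. ImpL2 was at 7.53 ± 2.62 CPM in mated progenitors and 29.6 ± 15.5 CPM in mated whole guts (log2 difference -1.97, SE 0.40, adjusted p = 2.68e-04). Thor was at 248 ± 42.5 CPM against 648 ± 249 CPM (log2 difference -1.38, SE 0.25, adjusted p = 7.53e-05), with every progenitor library below every gut library. In unmated material neither was called, at 0.21 for ImpL2 (SE 0.38, adjusted p = 0.616) and 0.25 for Thor (SE 0.24, adjusted p = 0.353). The REPTOR and chico calls in mated material, at 0.48 (SE 0.19, adjusted p = 0.0301) and 0.45 (SE 0.14, adjusted p = 0.00614), were lost with DESeq2 and with its size factors, which moved the median of all genes from 0.096 to -0.061, and REPTOR also at a minimum count of 50 (adjusted p = 0.0562).

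The mating difference itself was compared between progenitors and whole guts. It was lower in progenitors for 2 of 7 regulators, where 21.3% of all genes were called and 12.2% were called lower. ImpL2 gave -2.18 (SE 0.55, adjusted p = 0.0139), and -1.70 (adjusted p = 0.1) without unmated progenitor libraries 1 and 4. Thor gave -1.63 (SE 0.34, adjusted p = 0.00561) and stayed called in all 23 alternatives. InR, called in progenitors and not in whole guts, had a difference of -0.83 (SE 0.38, adjusted p = 0.125) that did not pass the test, so its mating change is not shown to differ between the materials.

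A like comparison set Actin controls against whole guts, both intact guts. They differ in driver and library run, and the 5 days at 29 °C are stated for the Actin flies only. The parts of driver, library run and any difference in temperature cannot be told apart. The comparison called 1 of 8 regulators higher and 2 lower, where 8.12% of all genes were called, 3.16% higher and 4.96% lower. It shares its whole gut libraries with the comparison of progenitors and whole guts. Thor gave -1.96 (SE 0.44, adjusted p = 0.0117), called in all 22 alternatives. Ilp3 gave 2.39 (SE 0.63, adjusted p = 0.0287), called in 14 of 21 alternatives; of the 7 that lost it, 6 were without unmated whole gut library 1 or 3, mated control library 3 or 4, or unmated control library 1 or 2 (adjusted p from 0.0528 to 0.062). REPTOR-BP gave -0.64 (SE 0.19, adjusted p = 0.0495), which only 6 of 22 alternatives kept, with an adjusted p up to 0.104; the call was lost without any 1 of mated whole gut library 1, 2 or 4, unmated whole gut library 2, 3 or 4, mated control library 1, 2 or 3, or any unmated control library. The visceral muscle markers also differed in their mating response between these guts, with 4 of 12 higher in Actin controls than in whole guts, and their part was not tested.

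Whether EcR RNAi changed the mating response was asked of the interaction of genotype and mating. None of 9 regulators was called by edgeR, where 0% of 9036 genes were; at an unadjusted p under 0.05 it held 727 genes (8.05%) and none of the 9, and DESeq2 called 1 gene and none of the 9. The interaction was 0.43 for Ilp3 (95% confidence interval -0.30 to 1.17), 0.04 for REPTOR-BP (-0.35 to 0.44) and -0.36 for REPTOR (-0.81 to 0.10). Apart from Ilp3, the regulators differed by -0.32 to 0.55 on the log2 scale between genotypes within a mating state, with an adjusted p of at least 0.359.

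Across the 32 libraries, with the mean of each kind of material taken off log2 CPM, some regulators varied together. ImpL2 and InR had a Pearson r of 0.747. The chico, foxo, Thor and REPTOR-BP transcripts gave r from 0.597 to 0.769 with each other, while their r with ImpL2 or InR was from -0.232 to 0.252. REPTOR had r of 0.682 with foxo, 0.588 with Thor, 0.465 with chico and 0.367 with REPTOR-BP, and of 0.191 with ImpL2 and 0.13 with InR. These correlations describe libraries that share tables, mating groups and depth, and they carry no p.

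Among 8056 genes tested in all 3 tables, the transcript most like Thor was whd (r = 0.948, and 0.871 within groups), which encodes a mitochondrial carnitine palmitoyltransferase. ImpL2 was most like rho (r = 0.923, and 0.85 within groups), the rhomboid protease that releases EGF receptor ligands. InR was most like vn (r = 0.892, and 0.882 within groups), which encodes a ligand of the EGF receptor. The gene vn is also on the list of 12 visceral muscle markers, and the part of muscle content in this likeness was not tested. The pairs of ImpL2 with rho and InR with vn had r from 0.739 to 0.971 and from 0.739 to 0.96 within single kinds of material, over 8 libraries each, highest in progenitors and lowest in EcR RNAi guts for ImpL2 and in Actin controls for InR. The gene most like foxo was Lnk (r = 0.911, and 0.884 within groups), an adaptor of the insulin receptor. REPTOR-BP was most like Atg101 (r = 0.886), a partner of the autophagy kinase Atg1, chico was most like Fem-1 (r = 0.874) and REPTOR was most like trio (r = 0.844). Leaving out the 2 libraries farthest from the median of the regulator left r at 0.936 for Thor, 0.906 for ImpL2, 0.885 for InR, 0.909 for foxo and 0.757 for REPTOR.

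**Figure D4:**
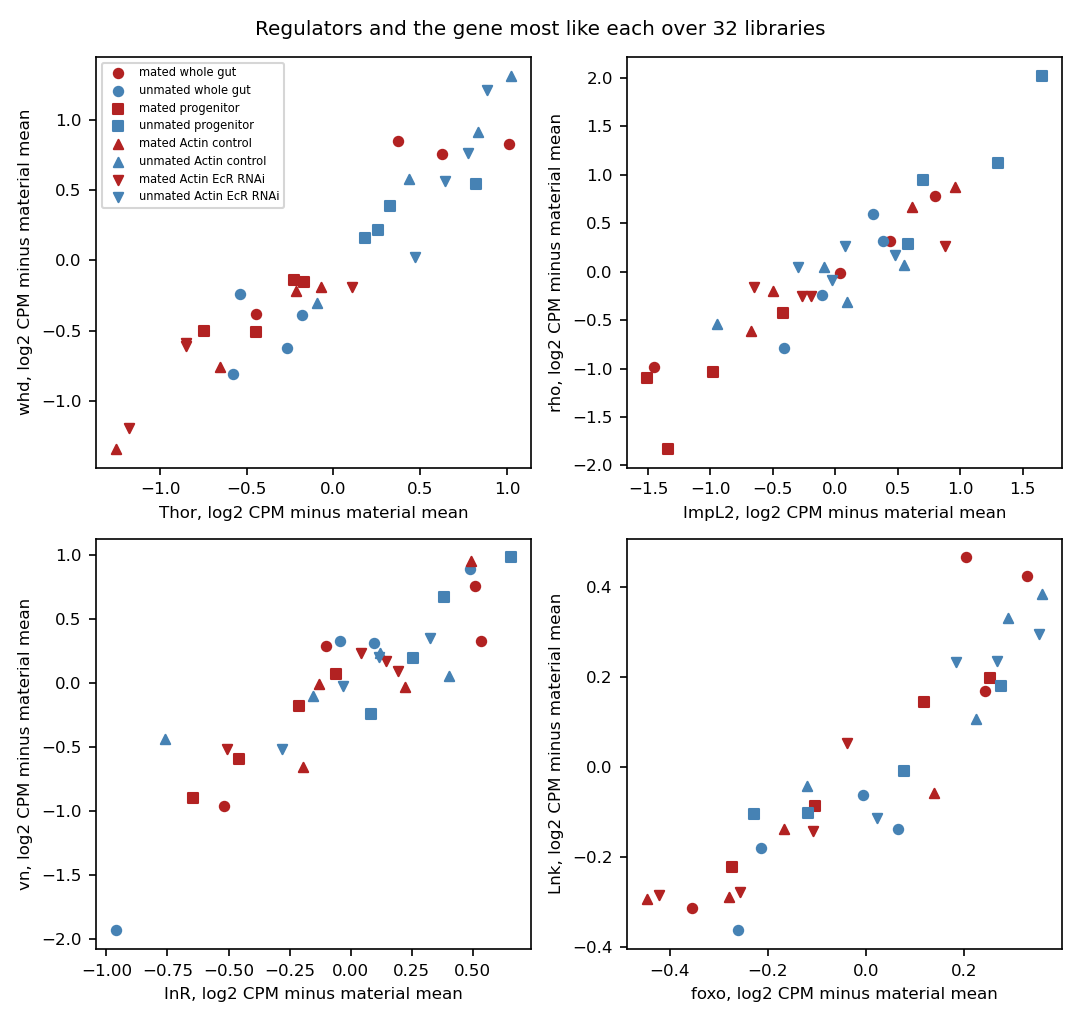
Log2 CPM minus the mean of its kind of material for Thor, ImpL2, InR and foxo (x axes) and for whd, rho, vn and Lnk, the gene most like each (y axes), over 32 libraries, with colour for mating and marker shape for material. Points follow a rising line in each panel, with r of 0.948, 0.923, 0.892 and 0.911.

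The rest of the pathway was read from 52 further insulin and TOR genes, of which 45 were tested in each comparison. In whole guts 1 rose and 2 fell, which is near the background of 4.26%, and all 3 come from the list of known targets. The glucosidase gene tobi rose by 2.19 on the log2 scale (SE 0.25, adjusted p = 0.0014), the lipase gene bmm, a FOXO target, fell from 346 ± 63.8 to 114 ± 25.7 CPM (adjusted p = 0.00227), and the lipase gene Lip4 fell from 40.3 ± 7.41 to 17.5 ± 2.65 CPM (adjusted p = 0.00242). In Actin controls tobi instead fell by 2.39 (SE 0.45, adjusted p = 0.00913), from 1506 ± 686 to 286 ± 129 CPM, and in progenitors it fell by 4.33 (SE 0.59, adjusted p = 0.00293), from 80.2 ± 59.99 to 4.00 ± 1.32 CPM. Sorted progenitors held far less tobi than whole guts, with log2 differences of -4.48 (SE 0.50) when unmated and -10.97 (SE 0.66) when mated. Of 11 tested enterocyte markers 4 also fell with mating in the sorted libraries, where 21.1% of all genes were called lower. The part of enterocyte RNA in the tobi decrease there was not tested. The mating difference of tobi in Actin controls less that in whole guts was -4.59 (SE 0.54, adjusted p = 1.5e-04).

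In progenitors 8 of the 45 rose and 8 fell, at a background of 40.2%. The 8 that rose were 3 TOR complex genes or direct inputs and 5 sensing genes. They included Rheb, the GTPase that activates TOR, by 0.29 (SE 0.06, adjusted p = 0.00714), Tsc1 of the complex that restrains Rheb by 0.28, and raptor of TOR complex 1 by 0.36. Of 12 amino acid and energy sensing genes 5 rose and 1 fell, among them Lkb1, the kinase upstream of AMPK, by 0.50 (SE 0.09, adjusted p = 0.00601), Nprl2 of the GATOR1 complex by 0.38, and scyl, an inhibitor of TOR, by 0.57. Of 10 genes from receptor to Akt 3 fell, namely the PI3 kinase catalytic subunit gene Pi3K92E at -0.35 (adjusted p = 0.0164), step at -0.63 (adjusted p = 0.0262) and sgg at -0.36 (adjusted p = 0.0301).

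In Actin controls 1 of the 45 rose and 9 fell, and with EcR RNAi 2 rose and 8 fell, at backgrounds of 6.87% and 10.8%. Rheb fell by 0.53 (SE 0.08, adjusted p = 0.00251) in controls, from 92.3 ± 6.06 to 64.0 ± 3.25 CPM, and by 0.57 (SE 0.08, adjusted p = 0.00114) with EcR RNAi, from 81.3 ± 4.30 to 54.7 ± 6.35 CPM. In contrast it rose in progenitors and was not called in whole guts, at 90.7 ± 11.5 CPM when mated and 85.3 ± 2.95 CPM when unmated. The zinc finger gene unk fell by 0.73 (SE 0.19, adjusted p = 0.0306) in controls and by 0.80 (SE 0.19, adjusted p = 0.0155) with EcR RNAi, and sgg rose in both, by 0.38 (adjusted p = 0.0128) and 0.29 (adjusted p = 0.0322). The AMPK subunit gene AMPKalpha fell in both, by 0.32 (adjusted p = 0.0452) and 0.40 (adjusted p = 0.0122), and Atg1 fell with EcR RNAi by 0.49 (SE 0.10, adjusted p = 0.00726).

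Between genotypes 5 of the 45 rose and 2 fell in unmated guts, at a background of 15.2%, and 2 rose in mated guts, at 8.52%. The PI3 kinase adaptor gene Pi3K21B was higher with EcR RNAi in both, by 0.78 (SE 0.16, adjusted p = 0.00573) when unmated and 0.72 (SE 0.16, adjusted p = 0.0131) when mated. The secreted receptor decoy gene Sdr, scarce at about 1 CPM, was lower in unmated EcR RNAi guts by a log2 difference of -1.17 (SE 0.32, adjusted p = 0.0223). In sorted progenitors against unmated whole guts 24 of the 45 were higher and 11 lower, at a background of 81%, with Akt1 higher by 2.23 (SE 0.14, adjusted p = 5.64e-10), the TOR inhibitor chrb by 2.29 (SE 0.19, adjusted p = 1.23e-08) and Ilp6 by 2.36 (SE 0.35, adjusted p = 1.29e-05), while melt, an insulin and TOR modulator, was lower with a difference of -4.33 (SE 0.26, adjusted p = 4.13e-10).

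**Figure D5:**
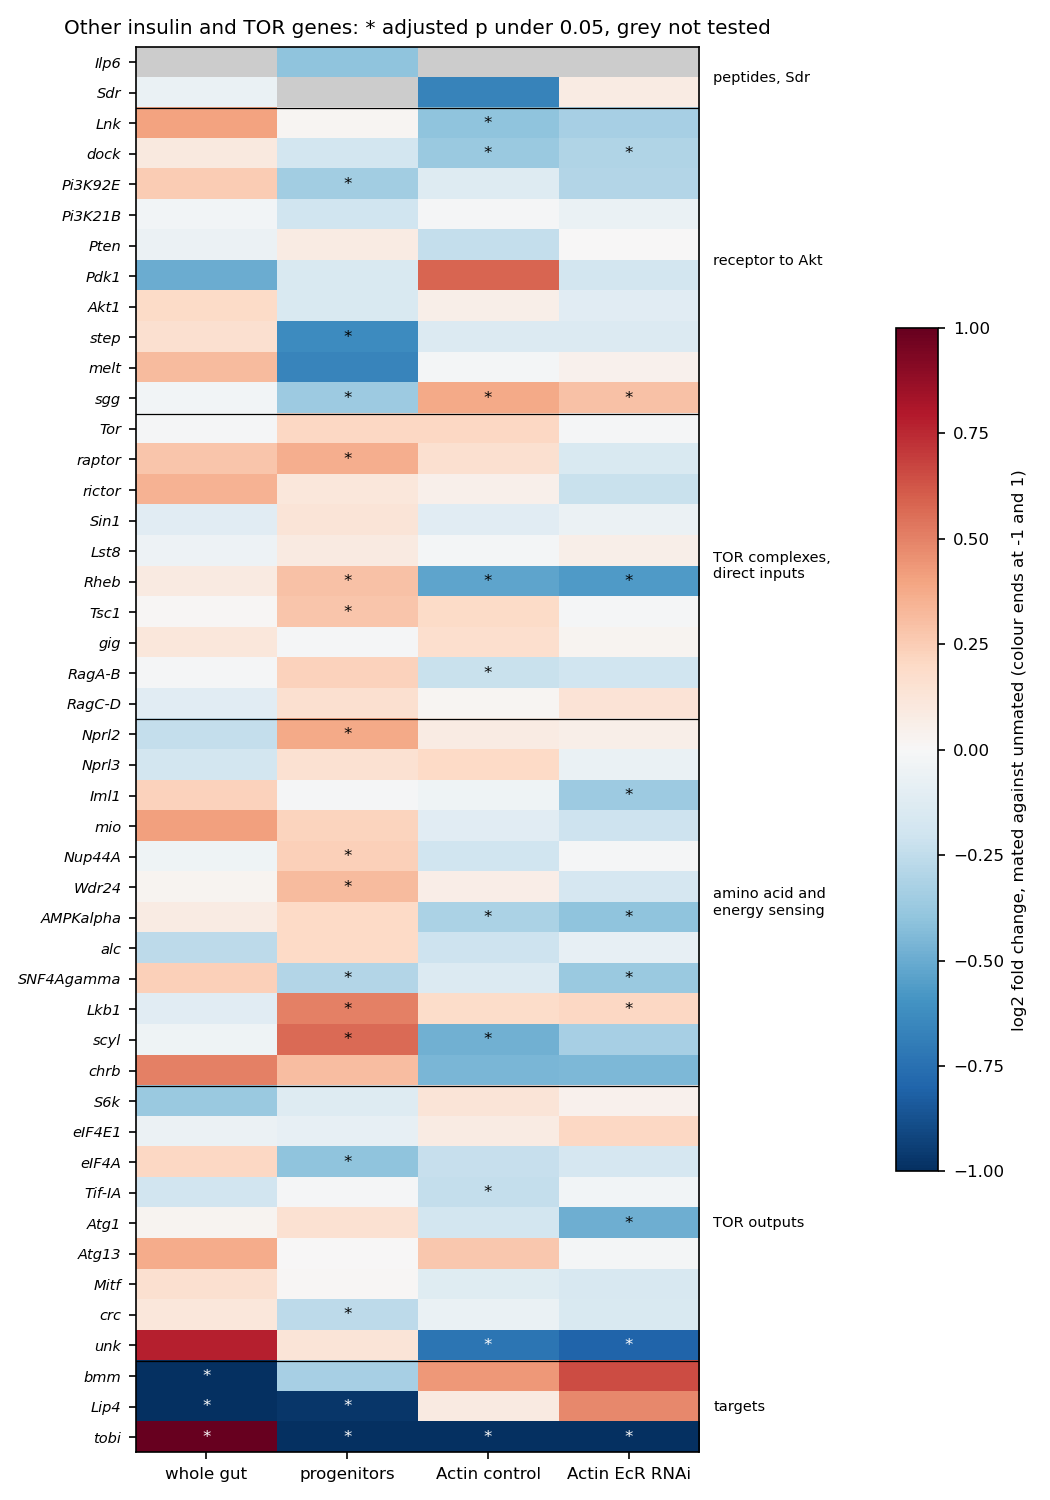
Log2 fold change between mated and unmated libraries for the other insulin and TOR genes in 4 kinds of material, as colour that ends at -1 and 1, with a star for an adjusted p under 0.05 and grey where a gene was not tested. Rheb is starred red in progenitors and starred blue in both kinds of Actin gut, and tobi is starred in all 4 columns, red in whole guts and blue in the other 3.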

How the data were processed

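Poly(A) RNA was sequenced from 32 analysed libraries, and the deposited files give whole-number counts per gene, which the authors made with STAR and HTSeq on the builds BDGP6 and dm6, with DESeq2 also named, per the submitters' processing notes. Versions and strandedness of counting were not given in the sources used, so reads of overlapping genes may belong to either gene. Whole gut, progenitor and Actin tables list 10635, 11128 and 10406 genes; their 501, 1059 and 594 transposable element entries were left out. In the files used, 16 further columns of samples were not used, and the file named for the Myo1A samples held the whole gut columns.

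Counts were analysed with edgeR 4.0.16 in R 4.3.3: filterByExpr (minimum count 10, minimum total count 15), TMM scaling, robust quasi-likelihood F tests and Benjamini-Hochberg adjustment over all genes tested. Each SE was derived from the log2 fold change and the root of its F statistic. The whole gut and the progenitor table each had a fit of its own, the 16 Actin libraries shared 1, and joint fits served the comparisons across tables. Exon lengths and 1-based coordinates were looked up by gene identifier in the BDGP6.54 annotation. Regulators, pathway and marker lists were chosen with earlier results of these data known. Named were all 9 regulators in every comparison, EcR, the 3 most alike genes of each regulator, and up to 3 called genes with the smallest adjusted p from each list and comparison, from which a selection is printed. Alternatives were DESeq2 1.42.0, DESeq2's scaling within edgeR, upper quartile scaling, a filter at 50 counts or none, a replicate block, fits to the compared groups alone, leaving out each library, and leaving out unmated progenitor libraries 1 and 4. The procedure was tested on simulated counts.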

Additional observations from a re-analysis of the deposited data

Results flagged for a closer look

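In 3 of 70 sets of 4 libraries screened, 1 library stood apart from the other 3 by Dixon's test, which chance does in about 1 in 20. REPTOR in mated whole guts was lowest in library 3, at 50.73 CPM against 71.6 to 74.8 CPM in the others. REPTOR in unmated progenitors was highest in library 1, at 265.9 CPM against 161 to 175 CPM. REPTOR-BP in mated Actin EcR RNAi guts was highest in library 2, at 22.66 CPM against 16.2 to 16.7 CPM.

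For 5 results the mating difference itself differed between materials. From progenitors less whole guts, ImpL2 gave -2.18 and Thor gave -1.63 on the log2 scale. From Actin controls less whole guts, REPTOR-BP gave -0.64, Ilp3 gave 2.39 and Thor gave -1.96. All 5 rest on the same 8 whole gut libraries.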

How the results depend on the processing

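Of the counts of regulators called, that in whole guts (0) was 2 with DESeq2 and 0 to 1 leaving out 1 library. In progenitors (3) REPTOR was called as well with DESeq2, with the replicate block and without mated library 1. The count there was 2 without unmated libraries 1 and 4. In Actin controls (3) it was 1 with only the compared groups and 1 to 4 leaving out 1 library. In EcR RNAi guts (2) it was 5 with DESeq2, 4 with a minimum count of 50, 4 with only the compared groups and 1 to 4 leaving out 1 library. Between genotypes in unmated guts (1) it was 0 with only the compared groups and 0 to 1 leaving out 1 library. For progenitors less whole guts (2) it was 1 without unmated progenitor libraries 1 and 4. For Actin controls less whole guts (3) it was 1 to 4 leaving out 1 library, and for mated progenitors against whole guts (5) it was 3 with DESeq2 and 3 with its size factors. The cause was not tested.

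Replicate numbers did not pair the libraries throughout: same-numbered libraries had correlations of their deviations from -0.129 to 0.284, and no material had every pair over 0.1. Libraries 3 and 4 of whole guts, 1 and 2 of progenitors and 1 of Actin controls were most like their own number, and the others were not. With 4 libraries in a group this check cannot settle whether numbers mark shared handling. With the replicate block the count was 4 in EcR RNAi guts and 2 between genotypes in unmated guts, and with it ImpL2 in whole guts gave -0.06 and REPTOR-BP in whole guts -0.01. The block ended the Ilp3 call for Actin controls less whole guts (2.41, adjusted p = 0.0701) and called Ilp3 (0.72) and foxo (-0.41) in EcR RNAi guts, InR between genotypes in unmated guts (0.37) and REPTOR in progenitors (-0.49).

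All values that changed sign were uncalled. With upper quartile scaling ImpL2 in EcR RNAi guts gave 0.03, InR for Actin controls less whole guts 0.05, REPTOR-BP in whole guts -0.06 and for unmated progenitors against whole guts 0.06, and in progenitors chico gave 0.00 and foxo 0.03. REPTOR-BP gave -0.01 in whole guts and -0.03 for mated progenitors against whole guts, each with DESeq2 and with its size factors. Without a filter chico gave 0.01 and foxo 0.03 in progenitors. Without unmated progenitor libraries 1 and 4, chico gave 0.01 and foxo 0.02 in progenitors, and ImpL2 -0.26 for unmated progenitors against whole guts.

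Leaving out 1 library, ImpL2 ranged from -0.13 to 0.50 for Actin controls less whole guts, -0.17 to 0.58 between genotypes when mated, -0.72 to 0.04 for the interaction, -0.44 to 0.15 in EcR RNAi guts, -0.06 to 0.53 in Actin controls and -0.22 to 0.38 in whole guts. InR ranged from -0.24 to 0.20 for Actin controls less whole guts, -0.15 to 0.08 in EcR RNAi guts, -0.02 to 0.34 in Actin controls and -0.04 to 0.38 in whole guts, and REPTOR from -0.07 to 0.16 in Actin controls. REPTOR-BP ranged from -0.13 to 0.06 and -0.14 to 0.04 between genotypes when mated and unmated, -0.07 to 0.14 for the interaction, -0.08 to 0.14 in whole guts and -0.10 to 0.04 for unmated progenitors against whole guts. Between genotypes Sesn ranged from -0.16 to 0.45 when unmated, Thor from -0.45 to 0.05 when mated and -0.07 to 0.27 when unmated, chico from -0.06 to 0.06 when mated, and foxo from -0.12 to 0.07 when mated and -0.10 to 0.05 when unmated. For foxo the interaction ranged from -0.11 to 0.08, and in progenitors chico ranged from -0.07 to 0.02 and foxo from -0.09 to 0.10.

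Of all genes, whole guts gave 376 calls, and 678 with DESeq2 or 195 leaving out 1 library. Progenitors gave 3627, and 1302 without unmated libraries 1 and 4. Actin controls gave 621, and 1048 with DESeq2, 266 with only the compared groups or 288 leaving out 1 library. EcR RNAi guts gave 974, and 449 leaving out 1 library. Genotype in mated guts gave 770, and 484 with only the compared groups or 471 leaving out 1 library. Progenitors less whole guts gave 2008, and 692 without unmated libraries 1 and 4, and Actin controls less whole guts gave 748, with 481 to 1155 leaving out 1 library. Depth limits Ilp3, at 1 to 112 counts a library, and Sesn, at 1 to 19.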
